A study of Mus musculus with 4 samples.

Results

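Cnksr3 was followed through the oligodendrocyte lineage in nuclei of mouse brain, from precursors through newly formed to mature oligodendrocytes, and set beside the other classes of nuclei. It is 1 gene of the 32285 in the count tables. It was taken by its symbol, and it had been chosen by its measured levels along the lineage in these same data, so the levels are a description with no test. The 4 libraries came from brains of female 5XFAD mice, aged 7 to 10 weeks, which carry human transgenes with familial Alzheimer mutations driven by a neuronal promoter. Every mouse had received intravenous engineered extracellular vesicles (EVs), built from the lipids of adipocyte EVs and modified with transferrin. By the series' design text, both groups received the same number of vesicles in 100 µL. The time from dose to collection for these brains is not given in the sources used here. The vesicles were low in phosphatidylethanolamine in the group PE-low EVs (2 libraries) and high in it in the group PE-high EVs (2 libraries). Each library pooled 2 mice, so n counts pools of mice, and no library of untreated mice was analysed here.

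CNKSR3 belongs to the CNK family, scaffold proteins that hold members of the Ras, Raf, MEK and ERK cascade together. In the kidney it is known as an aldosterone-induced scaffold of the epithelial sodium channel, which it links to the kinase SGK1 and the ubiquitin ligase NEDD4-2. Oligodendrocytes, the myelin-forming cells of the brain, arise from dividing precursors marked by Pdgfra and Cspg4. These pass through a short newly formed stage, marked by Bcas1, Enpp6 and Gpr17, before they make myelin and express Mog, Mag and Mobp.

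The gene (ENSMUSG00000015202) lies on the minus strand at chr10:7119063-7212237 in mm10 and spans 93175 bp. The annotation lists 2 transcripts. Cnksr3-201 has 13 exons with 3447 bases, and Cnksr3-202, which starts at position 7135506, has 6 exons with 2554 bases. Both share their 3' end, so counts taken from the 3' end of transcripts cannot tell them apart. No other annotated gene overlaps Cnksr3, and the nearest one, Ipcef1, which encodes a cytohesin interactor, lies 66585 bp away on the same strand. The 300 bases around the start of the gene (RefSeq, GRCm38.p6, chr10:7212188-7212487, minus strand) are shown because the level of the gene was so uneven between stages. Capitals mark the 3 matches to the GC box GGGCGG, of which a pair overlaps, and the 2 matches to the E-box CANNTG, a motif of bHLH factors such as OLIG2. Both strands were searched.

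Cnksr3 promoter: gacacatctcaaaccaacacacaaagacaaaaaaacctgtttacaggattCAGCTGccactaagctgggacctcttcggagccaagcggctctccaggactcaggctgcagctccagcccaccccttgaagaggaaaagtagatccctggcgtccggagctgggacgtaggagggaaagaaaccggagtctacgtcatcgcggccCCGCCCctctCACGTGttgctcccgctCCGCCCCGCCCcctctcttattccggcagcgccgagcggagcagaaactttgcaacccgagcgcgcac

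This stretch held 60% G and C and 21 CpG sites. Of the 32851 promoters of the same table, 35.7% held a GC box and 72.3% an E-box. The SOX core ACAAT, the CCAAT box CCAAT and the TATA box TATAAA, present in 31.0%, 37.4% and 13.6% of those promoters, had no match in this window.

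Libraries held 29472021 to 43272337 UMIs (unique molecules), and 8735 to 13915 nuclei were called per library. Nuclei were kept under the limit stated in the study's methods, 3% mitochondrial UMIs (10688 nuclei) and under a wider limit of 15% (37508 nuclei). The wider limit kept about as many nuclei as the study shows and the stated one far fewer, so which limit its own analysis used is unclear. PE-high EVs replicate 1 stood apart: the 3% limit kept 10.5% of its called nuclei, against 23.2%, 34.3% and 31.9% in PE-low EVs replicates 1 and 2 and PE-high EVs replicate 2. Pairs of libraries shared between 0 and 4 barcodes of kept nuclei. Classes were named from clusters made without Cnksr3. The cluster called newly formed oligodendrocyte-like carried 10 of 10 markers of that stage under both limits. It also held 5 of 10 precursor and 10 of 14 mature markers under the 3% limit, and 7 of 10 and 9 of 14 under the 15% limit.

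Cnksr3 was concentrated in newly formed oligodendrocytes. Its level there under the 3% limit, in CPM (UMIs of the gene scaled to 1e6 UMIs of the class), was 1830 and 2398 in PE-low EVs replicates 1 and 2 and 922 and 1425 in PE-high EVs replicates 1 and 2. These levels rested on 70, 164, 4 and 22 UMIs in 20, 30, 3 and 13 nuclei. The highest level of any other class in any library was 74.2 CPM, in mature nuclei, so newly formed nuclei stood clear of the rest in all 4 libraries.

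Precursors and mature oligodendrocytes were low, and close to each other when nuclei were assigned by clusters. Precursor-like nuclei had 14.9, 54.1, 0 and 44.1 CPM in the same order of libraries, from 1, 9, 0 and 4 UMIs. Mature oligodendrocyte-like nuclei had 23.4, 74.2, 0 and 14.6 CPM, from 5, 25, 0 and 2 UMIs. The ranges of both classes overlapped almost wholly, and the counts of 0 in PE-high EVs replicate 1 allow up to 34.8 CPM in its mature and 129.6 CPM in its precursor nuclei. The means were 28.3 ± 25.1 CPM in precursors, 1644 ± 625 CPM in newly formed and 28.1 ± 32.3 CPM in mature nuclei (SD, n = 4 libraries). With the marker gate, mature nuclei had 41.1 ± 22.2 and precursors 5.91 ± 4.65 CPM, and after subtraction of the near-empty profile the order turned, with 56.8 ± 61.3 against 389.9 ± 414 CPM. The share of free RNA was estimated at 91.6% to 106% in precursors and 51.2% to 67.3% in mature nuclei. Estimates above 95%, in precursors of PE-low EVs replicate 2 and PE-high EVs replicate 1, were set to 95% for the subtraction. The subtracted precursor level therefore divides few UMIs by a small remainder. The order of precursor and mature nuclei differed with the processing, and the cause was not tested. By clusters the newly formed mean was 58.6 times the mature mean. It was 50.4 times without PE-high EVs replicate 1 and 109.96 times without PE-low EVs replicate 2, which held 25 of the 32 mature UMIs. With nuclei assigned by a marker gate in place of clusters it was 25.6 times, and 20.4 times under the 15% limit.

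The wider limit gave the same order with more nuclei. Newly formed nuclei (63, 54, 57 and 38 in the 4 libraries) held 160, 226, 14 and 32 UMIs of Cnksr3, or 1444, 1968, 237 and 746 CPM. Exact Poisson 95% intervals, which cover counting error only, ran from 1229 to 1686, from 1720 to 2242, from 130 to 398 and from 511 to 1054 CPM. The PE-high EVs libraries were therefore the lower ones at this stage, and PE-high EVs replicate 1 the lowest. Precursors had 29.2, 42.6, 26.3 and 36.3 CPM and mature oligodendrocytes 26.5, 59.3, 24.2 and 23.0 CPM. Newly formed nuclei were above both neighbours in every library, 33.1 times above the mature class on the means, while precursor and mature nuclei overlapped.

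**Figure D1:**
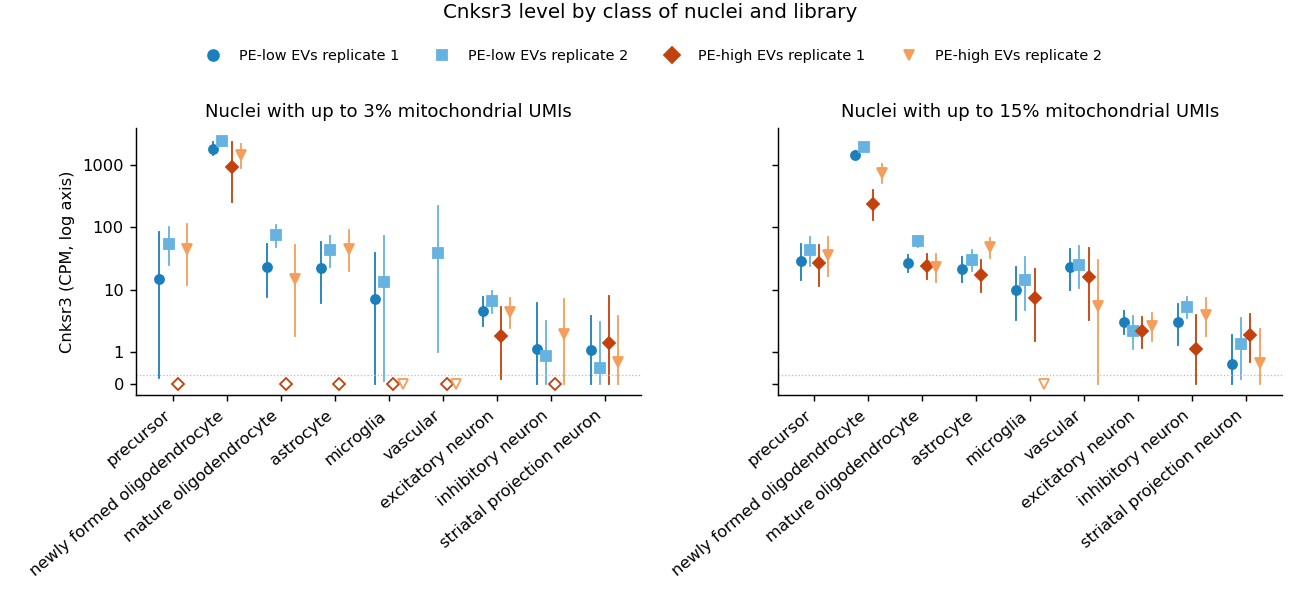
Cnksr3 level (CPM, log axis with 0 drawn apart at the bottom, open symbols for 0 UMIs) in 9 classes of nuclei for each of the 4 libraries, under the 3% and the 15% mitochondrial limits, with exact Poisson 95% intervals as bars. Newly formed nuclei lie between 922 and 2398 CPM under the 3% limit and between 237 and 1968 CPM under the 15% limit, above every other class.

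Newly formed nuclei were 0.565% of all nuclei under the 15% limit and held 47.8% of the 904 Cnksr3 UMIs. The same class was 0.618% of nuclei under the 3% limit and held 64.5% of 403 UMIs. Barcodes with near-empty content, which carry free RNA, had Cnksr3 at 4.58, 8.82, 2.25 and 2.69 CPM. With the share of free RNA estimated for newly formed nuclei under the 3% limit, between 35.4% and 41.2%, that level would give 0.00385 to 0.226 UMIs per library, against the 4 to 164 counted.

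Of the named classes outside the lineage, astrocytes had the highest mean. Under the 15% limit Cnksr3 averaged 29.0 ± 13.5 CPM in astrocyte-like, 17.2 ± 8.80 in vascular-like, 7.88 ± 5.99 in microglia-like, 3.32 ± 1.78 in inhibitory neuron-like, 2.47 ± 0.438 in excitatory neuron-like and 1.12 ± 0.588 CPM in striatal projection neuron-like nuclei (SD, n = 4 libraries). Of the inhibitory UMIs, 42 lay in 1 cluster (6, 27, 2 and 7 in the 4 libraries), against 4 and 1 in the other inhibitory clusters. Under the 3% limit inhibitory nuclei had 1, 2, 0 and 2 UMIs and excitatory nuclei 16, 24, 3 and 15. There the inhibitory class had the lower level in each library. Under the 15% limit neuroblast-like nuclei averaged 2.30 CPM, with a range of 0 to 9.19 CPM. Ependymal-like nuclei, 56 in all, had no UMI of the gene, which allows up to 32.5 CPM. Each class with UMIs overlapped its neighbours in the order of the means over the 4 libraries, as did astrocytes with precursors and mature oligodendrocytes, so the order of neighbours was not resolved. Classes farther apart did separate by clusters under the 15% limit. Precursors (26.3 to 42.6 CPM), mature oligodendrocytes (23.0 to 59.3) and astrocytes (17.2 to 47.6) lay above microglia (0 to 14.3) in all 4 libraries. They also lay above every neuron class (0 to 9.19). With the marker gate under this limit, however, the precursor mean fell within these microglia and neuron ranges. Under the 3% limit precursors, mature oligodendrocytes and astrocytes each had 0 UMIs in PE-high EVs replicate 1. A separation in all 4 libraries was therefore not shown there.

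One small set of neurons held more Cnksr3 than other neurons. An excitatory neuron-like cluster under the 3% limit, led by Synpo2, Rnf220 and Ntng1, had 24 UMIs in 100 nuclei (74.4 CPM). Its level was 156, 66.6 and 71.7 CPM in PE-low EVs replicates 1 and 2 and PE-high EVs replicate 2, from 4, 17 and 3 UMIs. PE-high EVs replicate 1 had no nucleus in it, and 71 of the 100 nuclei came from PE-low EVs replicate 2. A larger cluster led by Hs3st4 and Zfpm2, genes of the deep cortical layers, followed with 9.85 CPM from 18 UMIs in 748 nuclei. The other excitatory clusters lay between 0 and 6.61 CPM. Both clusters were picked after the values of all clusters had been seen.

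Newly formed nuclei were not alike in Cnksr3. At least 1 UMI was found, under the 15% limit, in 30 of 63 nuclei in PE-low EVs replicate 1, 34 of 54 in PE-low EVs replicate 2, 7 of 57 in PE-high EVs replicate 1 and 15 of 38 in PE-high EVs replicate 2. Nuclei with 3 or more UMIs numbered 19, 20, 3 and 2, and the richest nucleus of each library held 19, 27, 3 and 9 UMIs. Many nuclei of this class held none, then, beside others that held several molecules. The shares with none were 52.4%, 37.0%, 87.7% and 60.5%. An even level over the nuclei of a library, at their depths, would give 12.8%, 4.25%, 78.8% and 45.7%. The excess was large in the PE-low EVs libraries and smaller in the PE-high EVs libraries.

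The newly formed nuclei of the PE-low EVs libraries were deeper, with medians of 1664 and 1815.5 UMIs against 830 and 1037 in the PE-high EVs libraries. After thinning of each nucleus to 500 UMIs, which left out 0, 0, 3 and 2 nuclei, the gene was seen in 30.2%, 44.4%, 7.41% and 30.6% of newly formed nuclei, against 47.6%, 63.0%, 12.3% and 39.5% before. At equal depth PE-high EVs replicate 1 alone stood low, and PE-high EVs replicate 2 was at the level of PE-low EVs replicate 1. The thinned shares under the 3% limit were 10 of 20, 14 of 30, 1 of 3 and 7 of 12 nuclei, with PE-high EVs replicate 2 the highest. Under the wider limit the thinned shares were 1.08%, 2.15%, 1.63% and 3.15% in precursors and 1.74%, 2.76%, 2.06% and 1.30% in mature nuclei. Striatal projection neurons, unthinned and with median depths of 1898, 2799, 1295 and 1375 UMIs, gave a background share of 0.124%, 0.386%, 0.253% and 0.0938%. All 3 stages of the lineage, thinned, were above that unthinned background in each library under the wider limit. Under the 3% limit they were not. Thinned precursors with the gene numbered 0 of 41 in PE-low EVs replicate 1 and 0 of 21 in PE-high EVs replicate 1. Thinned mature nuclei with it numbered 0 of 48 in PE-high EVs replicate 1.

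Newly formed nuclei with Cnksr3 had a higher sum of the mature markers and a lower sum of the precursor markers than those without it under the 15% limit. The 14 mature markers summed to 16532, 15962, 19091 and 16201 CPM in nuclei with a Cnksr3 UMI. In nuclei without one they summed to 7100, 4543, 7074 and 4578 CPM, lower in 4 of 4 libraries. The 10 precursor markers went the other way, with 4693, 6023, 4652 and 6112 CPM in nuclei with Cnksr3 and 11808, 17964, 10919 and 11657 CPM in nuclei without. The 10 newly formed markers summed to 14955, 16147, 18316 and 19168 CPM with Cnksr3 and to 11827, 14601, 12009 and 12427 CPM without. The nuclei with a UMI were also deeper (a median of 1799.5 against 1089 UMIs over all libraries) and had less mitochondrial RNA (2.87% against 4.50%), and the part of depth in these differences was not tested. The difference in mature markers was smaller under the 3% limit, with 15006 against 9534 CPM over all libraries (46 and 20 nuclei) and 11689 against 10999 CPM in PE-low EVs replicate 1. Newly formed markers there were about equal in PE-low EVs replicate 2, at 17266 CPM with Cnksr3 and 17445 CPM without, and precursor markers were lower with Cnksr3 in 4 of 4 libraries. The split was made by the gene itself within 1 cluster, so it is given with no test. Nor are the sums a scale of stage. Under the 15% limit Tnr and Sox6 averaged 5463 and 1591 CPM in newly formed nuclei, against 3229 and 1463 CPM in precursors. Mbp and St18 averaged 4044 and 2175 CPM there, against 2864 and 1843 CPM in mature nuclei. The other precursor and mature markers had lower means in newly formed nuclei than at their own stage.

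**Figure D2:**
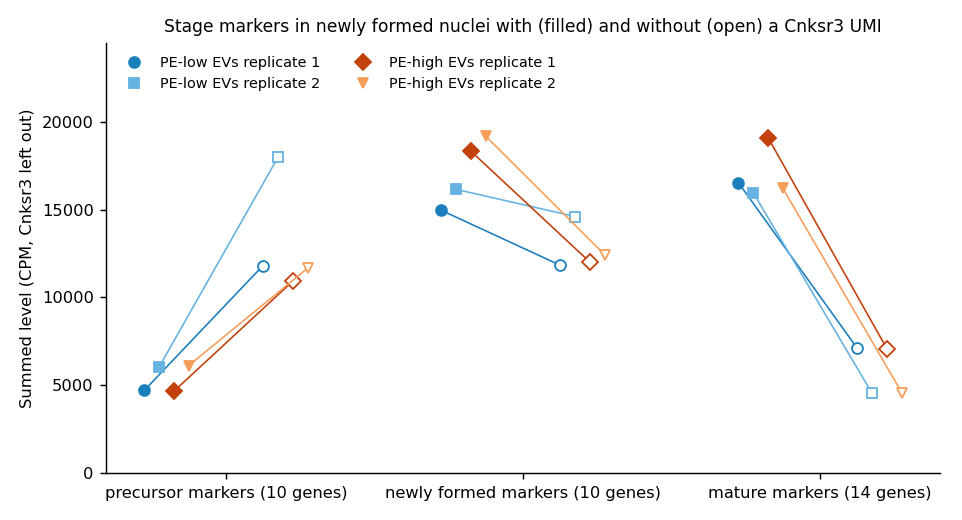
Summed level (CPM) of the precursor, newly formed and mature marker lists in newly formed oligodendrocyte-like nuclei with (filled) and without (open) a Cnksr3 UMI, by library, under the 15% limit, with Cnksr3 left out of the total. In all 4 libraries the mature markers are higher and the precursor markers lower in nuclei with Cnksr3, for example 16532 against 7100 CPM of mature markers in PE-low EVs replicate 1.

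Among mature oligodendrocytes the level was uneven as well. A sub-cluster led by St18, Mobp and Zfp536 had, under the 3% limit, 131 CPM from 18 UMIs in 97 nuclei, with 94.0, 191, 0 and 49.4 CPM in the 4 libraries. The other 3 mature sub-clusters had 42.0, 15.5 and 8.10 CPM. The one at 8.10 CPM (1 UMI in 48 nuclei) had Rgs9, Gm10754 and Rarb among its leading genes. These genes also led a striatal projection neuron-like cluster, and a mixture with neurons was not tested. Under the 15% limit the sub-clusters ran from 14.1 CPM, in the one with the deepest nuclei (a median of 2314 UMIs), to 83.9 CPM. None of these values rests on more than 45 UMIs.

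The genes with the pattern most like that of Cnksr3 were led by genes of the newly formed stage. Likeness was the Pearson correlation of log2(CPM + 10) over 40 profiles (10 classes in 4 libraries, 15% limit) among 13595 genes, and the profiles share libraries and depth. The 10 highest values were 0.90 for Bcas1os2, transcribed beside Bcas1, 0.90 for Sirt2, a deacetylase abundant in oligodendrocytes, 0.89 for 5830418P13Rik, 0.89 for Bcas1, 0.88 for 9630013A20Rik, 0.88 for Bfsp2, 0.88 for Enpp6, 0.87 for Plxnb3, a semaphorin receptor, 0.87 for Mpzl1 and 0.87 for Pik3r3, a regulatory subunit of PI3 kinase. Bcas1, 9630013A20Rik and Enpp6 are among the markers that named the newly formed class. Unlike Cnksr3, Bcas1os2 had 767, 1054, 1119 and 1166 CPM in newly formed nuclei of the 4 libraries, with the lowest value in a PE-low EVs library. Under the 3% limit, where newly formed and mature nuclei had to be merged (28 profiles, 10496 genes), the list included Cdc37l1, Clasp2, Sept7, Phlpp1, Gm16168, 1700047M11Rik, Add1, Sirt2 and Arhgef10, with correlations from 0.91 down to 0.84, and Sirt2 was in both lists. Among the promoters of the 10 genes under the 15% limit, 6 held an E-box, 5 a GC box and 7 the SOX core.

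The other CNK genes did not have this pattern. Cnksr2, the scaffold known from neurons, had 135, 139, 170 and 280 CPM in newly formed nuclei under the 15% limit, 229 ± 62.7 CPM in precursors and 300 ± 53.7 CPM in mature nuclei (SD, n = 4). Its mean was 859 ± 72.1 CPM in excitatory neurons, well above every stage of the lineage. How much of the Cnksr2 level in the lineage was free RNA was not tested. Cnksr1 had no UMI at any of the 3 stages. The neighbouring gene Ipcef1 had 15.4 ± 7.30 CPM in precursors, 15.1 ± 14.4 in newly formed and 33.3 ± 7.31 in mature nuclei, with no peak at the newly formed stage.

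The cascade that CNK proteins scaffold was present at low counts. All 16 listed genes from Ras to ERK had at least 1 UMI in newly formed nuclei under the 15% limit, among them the kinase gene Braf (62 UMIs) and Spred1, an inhibitor of the cascade (48 UMIs). Braf had 201 ± 41.6 CPM in precursors, 200 ± 71.6 in newly formed and 180 ± 16.8 in mature nuclei, and did not differ between stages beyond its spread. The feedback inhibitors Spry2, Spry4 and Dusp6 had 1 UMI each in newly formed nuclei. In precursors they had 26.4 ± 6.39, 19.8 ± 11.7 and 12.6 ± 3.69 CPM.

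Of the genes tied to CNKSR3 in the kidney, the channel was not detected in newly formed nuclei. Its subunit genes Scnn1a, Scnn1b and Scnn1g had 0 UMIs there, which allows up to 9.16 CPM over the 4 libraries, and Hsd11b2, the enzyme gene that gives aldosterone access to its receptor, also had 0. The regulators were present. Sgk1 had 135, 122, 254 and 187 CPM in the 4 libraries, Nedd4l, which encodes NEDD4-2, had 289, 183, 84.8 and 117 CPM, and the mineralocorticoid receptor gene Nr3c2 had 90.3, 95.8, 17.0 and 46.6 CPM from 24 UMIs in all. For mature nuclei the means were 266 ± 118, 164 ± 27.1 and 99.7 ± 3.47 CPM. Of the cytohesin genes, Cyth1 had means that increased along the lineage, with 39.9 ± 10.3 CPM in precursors, 74.2 ± 48.5 in newly formed and 212 ± 45.5 in mature nuclei.

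Several lineage transcription factors were also highest at the newly formed stage. Tcf7l2, a Wnt effector of that stage and one of its markers here, had 106 ± 23.5 CPM in precursors, 1319 ± 373 in newly formed and 41.3 ± 9.21 in mature nuclei. Sox10, which drives myelin genes, had 157 ± 8.02, 270 ± 85.4 and 103 ± 11.7 CPM. St18 stayed high in mature nuclei (1843 ± 181 CPM against 2175 ± 320 in newly formed and 58.1 ± 42.2 in precursors), and Sox6, a factor of precursors, was still at 1591 ± 198 CPM in newly formed nuclei and at 23.5 ± 7.80 in mature ones. Tcf7l2, St18 and Sox6 are markers of the lists that named classes, so their levels are no independent result.

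The comparison of both groups asked how brain nuclei differ after vesicles high against low in phosphatidylethanolamine. UMIs were summed per class and library and tested over all genes of the class with edgeR's quasi-likelihood test and Benjamini-Hochberg adjustment, with a threshold of 0.1. Since the gene was chosen with results of these data known, its fits are no independent evidence, and fewer molecules per cell and fewer nuclei with the gene cannot be told apart in such sums.

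In oligodendrocytes as a whole Cnksr3 was lower in the PE-high EVs libraries but did not pass the test. With newly formed and mature nuclei summed under the 3% limit, the level was 298 and 466 CPM in the PE-low EVs libraries and 44.2 and 157 CPM in the PE-high EVs libraries, and the groups did not overlap. The log2 fold change was -1.80 ± 0.42 (SE, edgeR adjusted p = 0.88), with the smallest p (0.000544) of the 4204 genes tested. None of these genes passed (0.0%), 209 had an unadjusted p under 0.05, and DESeq2 called 0. With the 15% limit the level was 128 and 191 against 38.4 and 62.6 CPM, a log2 fold change of -1.66 ± 0.26 (edgeR adjusted p = 0.102), just short of the threshold. There 0.0% of 10901 genes passed, 540 had an unadjusted p under 0.05, and DESeq2 called 1 gene, Cnksr3 (adjusted p = 0.0238). Without PE-high EVs replicate 1 the log2 fold change was -1.29 under the 3% limit and -1.34 under the 15% limit, with edgeR adjusted p of 0.999 and 0.282.

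The share of newly formed nuclei moved with this difference. They were 15.9% and 13.2% of oligodendrocyte-like nuclei in the PE-low EVs libraries and 5.66% and 10.8% in the PE-high EVs libraries, and 7 of the 7 newly formed markers tested had fitted values below 0 (median of -0.87 against -0.03 for all genes), none past the threshold. With the 15% limit the shares of nuclei were 4.74% and 4.08% against 5.22% and 3.89%, and overlapped. The share of oligodendrocyte-like UMIs that came from newly formed nuclei did not overlap under either limit, with 15.2% and 16.9% against 4.79% and 10.1% under the 3% limit and 7.18% and 6.89% against 6.66% and 5.48% under the 15% limit. In the sums under the 15% limit, 8 of 10 newly formed markers had fitted values below 0, with a median of -0.18 against -0.01 for all genes and none past the threshold.

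In newly formed nuclei taken alone, the difference passed the test under the 15% limit. Cnksr3 averaged 1706 ± 371 CPM in the PE-low EVs libraries and 492 ± 360 CPM in the PE-high EVs libraries (SD, n = 2 each), 3.47 times less, and the groups did not overlap. The log2 fold change was -1.89 ± 0.35 (SE, edgeR adjusted p = 0.0506). Of 1698 genes tested, 2 were called (0.118%), and both were lower in the PE-high EVs group. The other was Gpc5, a glypican gene and one of the listed astrocyte markers, with a log2 fold change of -2.38 ± 0.44 (edgeR adjusted p = 0.0506), which is named after its value was seen. Gpc5 was also among the leading genes of both precursor-like clusters under this limit. DESeq2 called 1 gene, Cnksr3 (adjusted p = 0.0552). Without PE-high EVs replicate 1 the log2 fold change was -1.26 and the call was lost (edgeR adjusted p = 0.210), as it was without the low-count filter (-2.12, edgeR adjusted p = 0.849). It was, under the 3% limit with 3 nuclei in that library, -0.82 ± 0.41 (edgeR adjusted p = 0.97), with 0.0% of 395 genes called, 11 genes at an unadjusted p under 0.05 and 0 calls by DESeq2.

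The mitochondrial share of newly formed nuclei also differed, with medians of 3.75%, 2.56%, 5.99% and 3.47% in the 4 libraries. Within nuclei of up to 3% mitochondrial UMIs, Cnksr3 had 1503 and 2355 CPM in the PE-low EVs libraries and 536 and 1185 CPM in the PE-high EVs libraries. In nuclei of 3% to 5% it had 1473 and 974 against 343 and 198 CPM, and in nuclei of 5% to 15% it had 1345 and 1947 against 121 and 563 CPM. Both PE-high EVs libraries were below both PE-low EVs libraries in each of the 3 ranges. The PE-high EVs values rest on 2 to 22 UMIs each.

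**Figure D3:**
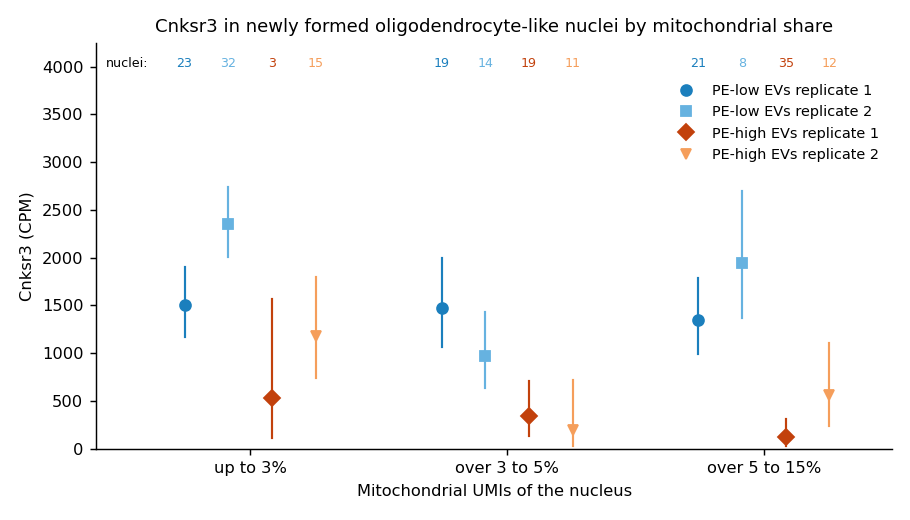
Cnksr3 level (CPM) in newly formed oligodendrocyte-like nuclei of the 4 libraries, in 3 ranges of the mitochondrial share of a nucleus, with exact Poisson 95% intervals. In each range both PE-high EVs libraries lie below both PE-low EVs libraries, with 121 and 563 against 1345 and 1947 CPM in the range of 5% to 15%.

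Markers of the newly formed stage had no common direction. Bcas1 had, under the 15% limit, 2428 and 2682 CPM in newly formed nuclei of the PE-low EVs libraries and 2544 and 2776 CPM in those of the PE-high EVs libraries. Enpp6, a choline phosphodiesterase, had 478 and 697 against 543 and 723 CPM. Lower in both PE-high EVs libraries were 9630013A20Rik (4053 and 4659 against 3850 and 3452 CPM) and Tcf7l2 (1544 and 1524 against 763 and 1446 CPM). Higher in both were Gpr17 (153 and 148 against 271 and 187 CPM) and Bmp4 (99.3 and 113 against 136 and 257 CPM). Over the list, 0 of 10 markers passed, 5 had fitted values above 0 and 5 below, and the median was 0.00, with -0.01 for all genes. Myelin genes had mostly lower levels, and none passed: of the 7 mature markers tested, 6 had fitted values below 0, with a median of -0.45. Mag, a myelin adhesion protein, had 596 and 627 against 339 and 187 CPM (log2 fold change of -1.17 ± 0.33, edgeR adjusted p = 0.28), and Mbp, a core myelin protein, had 4938 and 4781 against 3053 and 3405 CPM (-0.61 ± 0.18, edgeR adjusted p = 0.29). The part of the mature genes in the difference of Cnksr3 was not tested.

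**Figure D4:**
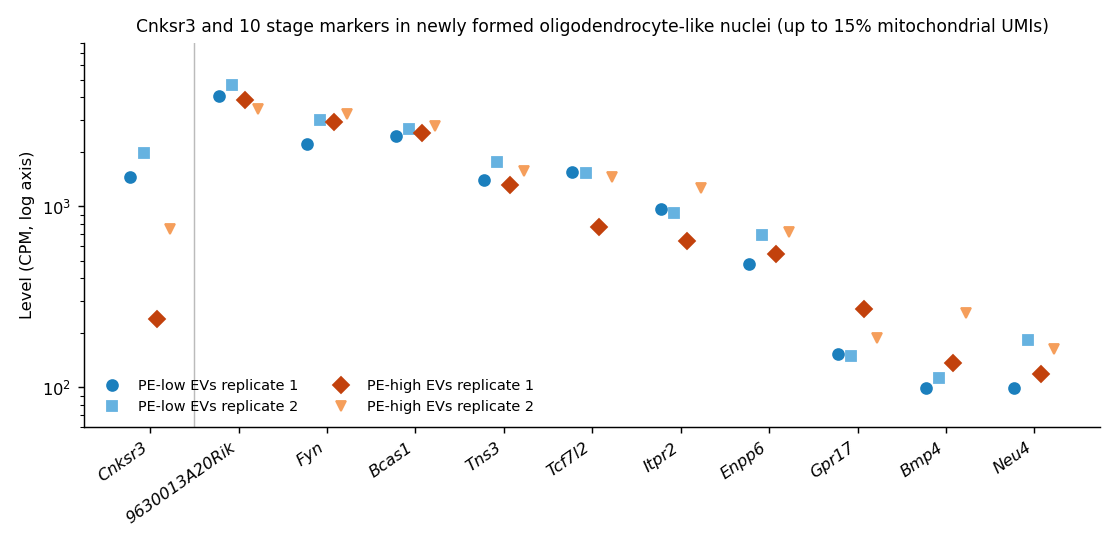
Levels (CPM, log axis) of Cnksr3 and of the 10 newly formed markers in newly formed oligodendrocyte-like nuclei of the 4 libraries under the 15% limit. Cnksr3 is lower in both PE-high EVs libraries (237 and 746 CPM) than in the PE-low EVs libraries (1444 and 1968 CPM), while Bcas1 lies between 2428 and 2776 CPM in all 4. Among the markers, 9630013A20Rik and Tcf7l2 are also lower in both PE-high EVs libraries, and Gpr17 and Bmp4 are higher in both.

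None of the partner lists had a gene past the threshold in newly formed nuclei. Tested there were 1 of 3 genes of the CNK family and its neighbour, 3 of 16 from Ras to ERK, 2 of 10 of the mineralocorticoid list, 0 of 4 of the cytohesin list and 5 of 12 transcription factors. Nedd4l had a log2 fold change of -1.26 ± 0.48 (edgeR adjusted p = 0.43) and Sgk1 one of 0.79 ± 0.41 (edgeR adjusted p = 0.50). Neither is read as a group difference, and Nr3c2 had too few UMIs to be tested.

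In the other stages the fitted differences were smaller under the 15% limit. With the 3% limit mature nuclei had too few UMIs for a fit of their own, and their levels (23.4 and 74.2 against 0 and 14.6 CPM) differed between the groups by a larger ratio than those of newly formed nuclei did. Mature nuclei under the 15% limit had 26.5 and 59.3 against 24.2 and 23.0 CPM, a log2 fold change of -0.85 ± 0.36 (edgeR adjusted p = 0.996). Of 10669 genes 0.0% were called, 499 had an unadjusted p under 0.05, and DESeq2 called 0. This value rested on PE-low EVs replicate 2: without it the log2 fold change was -0.13, and without PE-low EVs replicate 1 it was -1.33 and passed (edgeR adjusted p = 0.0267). Precursors had 29.2 and 42.6 against 26.3 and 36.3 CPM, which overlapped, a log2 fold change of -0.21 ± 0.48 (edgeR adjusted p = 0.99). There 0.0% of 6174 genes were called, 364 had an unadjusted p under 0.05, and DESeq2 called 0. Under the 3% limit Cnksr3 had too few UMIs for a test in precursors, where 2 of 1676 genes (0.119%) passed, Cntn5, a neuronal adhesion gene, at 2.05 ± 0.40 (edgeR adjusted p = 0.000683) and Ptprs, a receptor phosphatase gene, at -2.03 ± 0.53 (edgeR adjusted p = 0.098). DESeq2 called 0 of them, and both genes are named after their values were seen.

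Outside the lineage, astrocytes and excitatory neurons were tested, and neither passed. Astrocytes ranged from 17.2 to 47.6 CPM under the 15% limit, with both extremes in the PE-high EVs group, a log2 fold change of 0.31 ± 0.41 (edgeR adjusted p = 0.999). In excitatory neurons the value was -0.11 ± 0.37 under the 15% limit and -0.64 ± 0.45 under the 3% limit (edgeR adjusted p = 0.999 and 1.00). Vascular-like nuclei had 22.8 and 25.0 against 15.8 and 5.40 CPM under the 15% limit, from 8, 8, 3 and 1 UMIs, and microglia-like nuclei 9.87 and 14.3 against 7.35 and 0 CPM, from 5, 5, 3 and 0 UMIs. Both were lower in the PE-high EVs libraries, and neither was tested. Near-empty barcodes had the same order, with 4.58 and 8.82 against 2.25 and 2.69 CPM. Free RNA was estimated under the 3% limit at 62.3% to 79.9% in microglia-like nuclei. Its part in these levels was not tested.

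The difference between stages was tested as well, with an interaction of class and group and the library as a block. The log2 fold change in newly formed nuclei minus that in mature nuclei was -1.24 ± 0.42 under the 15% limit (edgeR adjusted p = 0.68). Against precursors it was -1.78 ± 0.53 (edgeR adjusted p = 0.55). Neither passed over all genes tested, and under the 3% limit the difference from mature nuclei turned to 1.09 ± 1.17 (edgeR adjusted p = 1.00), with 2 UMIs in mature nuclei of the PE-high EVs group. A group difference particular to newly formed nuclei was therefore not shown.

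**Figure D5:**
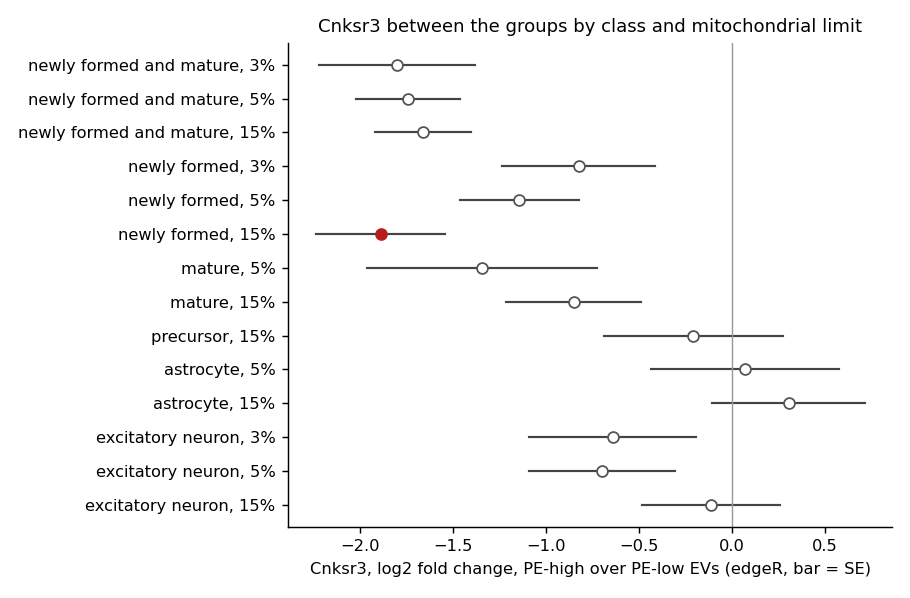
Log2 fold change of Cnksr3, PE-high EVs over PE-low EVs, with its SE, by class of nuclei and mitochondrial limit, from edgeR, with a filled point where the adjusted p is under 0.1. Newly formed nuclei are at -1.89 under the 15% limit and -0.82 under the 3% limit, mature nuclei at -0.85 and precursors at -0.21 under the 15% limit.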

How the data were processed

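Nuclei were taken from brain sections frozen in OCT and sequenced with the 10x Genomics 3' v3.1 kit. Per the submitters' processing notes, the authors used Cell Ranger 7.1.0 and mm10. The deposited matrices hold raw UMI counts of all barcodes, including empty ones, and whether intronic reads were counted is not given in the sources used here. Nuclei were called by a knee on UMIs and a test against the near-empty profile (FDR of 0.01, 10000 simulations). The limits stated in the study's methods, of 200 and 2500 detected genes and of 3% mitochondrial UMIs, were applied per nucleus, and a mitochondrial limit of 15% was used beside it. Nuclei were clustered with scanpy 1.11.5 without Cnksr3, and clusters were named from marker lists (at least 3 markers). The members, lists and tests were chosen with earlier results of these data known, and the naming thresholds were written after clusters had been seen. No doublet caller was run. Non-neuronal clusters that also carried markers of another, unrelated non-neuronal class were left unnamed, and mixture with neurons was not checked. Doublets were treated as an alternative that leaves out nuclei with 3 or more markers of another, non-neuronal class.

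Levels are CPM per class and library. Sums of UMIs were tested with edgeR 4.0.16 (TMM, filterByExpr, Benjamini-Hochberg) over all genes of a class, 2 against 2 libraries, which the labels number as replicates. Whether they differ beyond the pooled mice is not stated, so p-values measure the spread between these libraries. Libraries of a group did differ in their nuclei. Under the 15% limit a vascular-like cluster led by Cxcl10 and Rsad2 had 0, 197, 161 and 163 nuclei in the 4 libraries. Another, led by Flt1 and Slco1a4, had 275, 0, 2 and 1. The source of such differences was not tested. SE is the log2 fold change over the root of F. DESeq2 1.42.0 was an alternative. In counts simulated for oligodendrocyte-like sums (4256 genes), the edgeR test recovered 86% of genes changed by a log2 fold of 2. That simulation used a fixed spread between libraries, not one estimated from these data, and changed only genes above a minimum expected count. The 86% is therefore no estimate of recovery in the real sums. Floors for counts of 0 are 3 UMIs. The named genes were Cnksr3, the 10 genes most like it (200 UMIs or more, 10 nuclei or more per class and library), and the listed genes. Promoters came from RefSeq, and the 2 transcripts from GENCODE for GRCm38. Values of some listed or alike genes are not reported here.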

Additional observations from a re-analysis of the deposited data

How the results depend on the processing

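The fitted Cnksr3 difference of oligodendrocyte-like nuclei was below 0 under all 18 alternatives, from -3.11 to -1.05, but its side of the threshold was not stable. Under the 3% limit (-1.80) it passed without the low-count filter (-1.90, edgeR adjusted p = 0.00682) and with the replicate block (-1.88, 0.000147). With 1 library left out it ran from -3.11 to -1.29 and passed without PE-low EVs replicate 1 or PE-high EVs replicate 2. Under the 15% limit it passed with DESeq2 (-1.65), without the filter (-1.69), with the replicate block (-1.65) and without any 1 library other than PE-high EVs replicate 1 (-1.94 without PE-low EVs replicate 1, -1.33 without PE-low EVs replicate 2 and -2.03 without PE-high EVs replicate 2). Replicate numbers are only shared: with 2 pairs, the correlation of same-numbered deviations was 0.10 in oligodendrocyte-like and -0.21 in newly formed nuclei. The crossed pairing gave 0 calls in both, and the block gave 15 and 0. In newly formed nuclei the value was -0.82 under the 3% limit and -1.89 under the 15% limit, where it failed without the filter (-2.12, edgeR adjusted p = 0.849) and ran from -2.84 to -1.26 with 1 library left out. For mature nuclei that range was -1.33 to -0.13. The difference between the newly formed and mature effects turned from -1.24 to 1.09 under the 3% limit.

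Genes called in oligodendrocyte-like nuclei numbered 0, but 1 without the filter or with a marker gate in place of clusters, 15 with the block and 0 to 15 with 1 library left out. In precursors they numbered 2, but 0 with DESeq2, without the filter, under the 5% or 15% limit, without the upper gene limit or with the gate, 1 at a threshold of 0.05, and 0 to 2 with 1 library left out. The log2 ratio of mature to precursor levels (-0.01) was 2.80 with the gate, 2.54 with the gate under the 15% limit, -2.78 after subtraction of the near-empty profile, and -0.64 to 0.50 with 1 library left out. That of newly formed to mature levels (5.87) was 4.68 and 4.35 with the gate, and 5.65 to 6.78 with 1 library left out. That of the lineage to all other nuclei (5.68) was 4.87 and 4.37 under the 5% and 15% limits, 2.69 and 2.49 with the gate, 7.47 after subtraction, and 5.40 to 5.93 with 1 library left out. The cause of these changes was not tested. Alternatives that combine the 15% limit with another setting, tests of newly formed or mature nuclei alone, the interaction and the mitochondrial ranges were chosen after seeing the data. Where a library was left out, the lone library of its group was assumed to vary like the others. Under the 3% limit the low-count filter removed Cnksr3 in precursors and astrocytes, whose log2 ratios were -0.65 and -0.51 with no test.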
